A study of Mus musculus with 8 samples.

Results

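Of the 55487 genes counted in each library, 8 were taken by symbol as members of the TNF receptor superfamily: Tnfrsf1a, Tnfrsf1b, Fas, Ltbr, Cd40, Tnfrsf9, Tnfrsf4 and Tnfrsf11a. All 8 symbols matched an Ensembl gene, and all 8 genes passed the filter on low counts. The libraries came from conventional dendritic cells (cDC), the antigen-presenting cells that prime T cells, purified by sorting from the spleens of C57BL/6 mice without treatment. They formed 4 groups of 2 libraries. Wild-type mice gave both subsets, cDC1 and cDC2. Mice of the genotype Zeb2 -165(d1+2+3) gave cDC1, called Zeb2 mutant cDC1 here, and those of the genotype Irf8 +32-/- gave cDC2, called Irf8 mutant cDC2 here. Both genotypes are named for a regulatory element of the gene, and the labels name no Cre line or cell type to which either is limited. The Zeb2 genotype was profiled in cDC1 only and the Irf8 genotype in cDC2 only. Every library was made from 100000 cells, and in every group the libraries are numbered replicate 2 and replicate 3. The labels do not say whether a replicate is 1 mouse, pooled mice or another sort. The p-values below therefore set differences against the spread between libraries within groups, estimated over all 8 libraries. Whether that is the spread between mice is not known.

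Receptors of this family bind trimeric ligands of the TNF superfamily and have no enzyme activity of their own. Their cytoplasmic tails recruit TRAF adaptor proteins, which lead to the canonical or the alternative NF-κB pathway, or, in Fas and Tnfrsf1a, a death domain that can also lead to caspase 8 and cell death. In dendritic cells Cd40 receives the signal of helper T cells, Ltbr supports the upkeep of splenic cDC2, and Tnfrsf11a (RANK) supports survival.

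The genes lie apart on the genome, except that Ltbr and Tnfrsf1a are close neighbours (coordinates of the files, GRCm38). Tnfrsf1b (ENSMUSG00000028599) is at chr4:145213463-145246870 on the minus strand, Tnfrsf9 (ENSMUSG00000028965) at chr4:150914562-150946102 on the plus strand, and Tnfrsf4 (ENSMUSG00000029075) at chr4:156013843-156016612 on the plus strand. Ltbr (ENSMUSG00000030339) is at chr6:125306571-125313885 on the minus strand and Tnfrsf1a (ENSMUSG00000030341) at chr6:125349362-125362484 on the plus strand. The others are Cd40 (ENSMUSG00000017652) at chr2:165055627-165072948, Fas (ENSMUSG00000024778) at chr19:34290666-34327772 and Tnfrsf11a (ENSMUSG00000026321) at chr1:105780718-105847981, each on the plus strand. None of the 8 genes shares exon bases with another annotated gene. Tnfrsf9 overlaps Camta1 on the opposite strand and Fas overlaps Gm27818, in both cases without shared exon bases. Their exons sum to between 1365 bases in Tnfrsf4 and 5985 bases in Tnfrsf11a.

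The sequences just upstream of the 4 genes that differed between wild-type cDC1 and cDC2 are shown because the study alters regulatory elements of 2 transcription factors. Each is the 250 bases before the RefSeq transcription start (GRCm38.p6), written 5′ to 3′ in the direction of transcription, with motif matches in capitals. RefSeq windows were found for 7 of the 8 members, with 2 windows for Tnfrsf9. The first 2 sequences belong to genes lower in cDC1 (Tnfrsf1b, chr4:145246871-145247120, minus strand; Tnfrsf11a, chr1:105780473-105780722, plus strand) and the other 2 to genes higher in cDC1 (Fas, chr19:34290409-34290658, plus strand; Tnfrsf4, chr4:156013445-156013694, plus strand).
Tnfrsf1b: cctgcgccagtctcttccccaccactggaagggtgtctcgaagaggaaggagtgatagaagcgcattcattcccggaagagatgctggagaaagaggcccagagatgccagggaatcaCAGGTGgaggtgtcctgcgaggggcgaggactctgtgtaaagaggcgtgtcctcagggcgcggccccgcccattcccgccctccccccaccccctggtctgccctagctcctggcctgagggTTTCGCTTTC
Tnfrsf11a: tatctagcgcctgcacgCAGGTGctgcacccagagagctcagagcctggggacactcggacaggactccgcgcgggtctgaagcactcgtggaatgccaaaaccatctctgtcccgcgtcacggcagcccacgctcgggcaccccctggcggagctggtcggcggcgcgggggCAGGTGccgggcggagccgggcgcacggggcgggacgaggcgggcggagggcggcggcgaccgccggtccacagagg
Fas: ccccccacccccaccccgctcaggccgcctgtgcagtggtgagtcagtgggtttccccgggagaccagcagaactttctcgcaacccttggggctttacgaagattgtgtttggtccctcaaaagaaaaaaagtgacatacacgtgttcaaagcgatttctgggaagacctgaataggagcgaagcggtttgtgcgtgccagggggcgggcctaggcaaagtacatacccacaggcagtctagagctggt
Tnfrsf4: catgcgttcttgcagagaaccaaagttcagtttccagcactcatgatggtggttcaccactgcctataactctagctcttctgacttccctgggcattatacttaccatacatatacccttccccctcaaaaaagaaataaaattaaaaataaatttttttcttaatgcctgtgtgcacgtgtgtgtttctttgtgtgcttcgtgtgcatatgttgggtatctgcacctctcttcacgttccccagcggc

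On both strands of these windows 4 motifs were searched: CAGGTG, the E-box that Zeb2 and other zinc finger and helix-loop-helix factors recognise, GGAA and GAAA with any 2 bases between them, the composite element at which Irf8 or Irf4 binds with an Ets factor, GAAA and GAAA with any 2 bases between them, the core of the interferon response element, and GGGA and CC with any 4 bases between them, a short form of the NF-κB site. No motif contains another, though matches may overlap. The Tnfrsf1b window held 1 CAGGTG, 132 bases before the start, and 1 interferon response core, 10 bases before the start and on the opposite strand, so that it reads as its reverse complement. The Tnfrsf11a window held 2 CAGGTG, 233 and 77 bases before the start. No match to any of the 4 motifs was in the Fas, Tnfrsf4, Tnfrsf1a or Ltbr window or the first Tnfrsf9 window, and the second Tnfrsf9 window held 1 NF-κB form, 42 bases before its start. Among all 32851 RefSeq windows of this length, 17.2% held CAGGTG, 2.3% the composite element, 2.98% the interferon response core and 17.6% the NF-κB form. The matches describe letters and were not measured as binding.

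The libraries held 49380686 to 58611821 counts, and 20631 genes were tested. All 10 cDC1 markers (Xcr1, Clec9a and others) were higher and all 10 cDC2 markers (Sirpa, Esam and others) lower in wild-type cDC1 than in wild-type cDC2 by edgeR's quasi-likelihood test, and likewise in Zeb2 mutant cDC1 against Irf8 mutant cDC2, so the labelled subsets matched their markers. In wild-type cDC1 the 2 libraries differed with gene length: Spearman's rho of their log2 difference with exon length was -0.39 across 8399 genes, against 0.24 in Zeb2 mutant cDC1, 0.14 in Irf8 mutant cDC2 and 0 in the wild-type cDC2 pair. Genes are not independent replicates, so these values describe the libraries. In these bulk samples, fewer cells of a type and less RNA per cell cannot be told apart. Levels below are CPM, counts relative to the library's total after TMM scaling, given for replicate 2 and then replicate 3. Means are ± SD with n = 2, folds and log2 differences come from the fit over all 8 libraries, and a gene is said to have risen, fallen, been higher or been lower by the test at an adjusted p under 0.05.

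Per kilobase of exon, which allows genes to be compared, the TNF receptors Tnfrsf1a and Tnfrsf1b stood above the other 6 members in every library. In wild-type cDC1 Tnfrsf1a was at 113 ± 31.6 CPM per kilobase and Tnfrsf1b at 37.8 ± 4.83. Cd40 followed at 18.9 ± 0.197, Ltbr at 15.1 ± 0.516, Tnfrsf4 at 15.1 ± 5.26, Tnfrsf11a at 9.70 ± 0.938, Fas at 8.65 ± 2.43 and Tnfrsf9 at 2.06 ± 0.564 CPM per kilobase. In wild-type cDC2 the order at the top was the other way round, with Tnfrsf1b at 208.5 ± 15.3 and Tnfrsf1a at 161.5 ± 8.15 CPM per kilobase. Below them came Cd40 at 15.3 ± 1.15, Tnfrsf11a at 15.2 ± 0.179, Ltbr at 14.2 ± 0.77, Tnfrsf4 at 5.78 ± 1.03, Fas at 4.54 ± 0.291 and Tnfrsf9 at 2.39 ± 0.264. Among the CPM per kilobase of all tested genes, Tnfrsf1a stood between percentiles 97.6 and 99.1 and Tnfrsf9 between 47.4 and 62 over the 8 libraries.

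**Figure D1:**
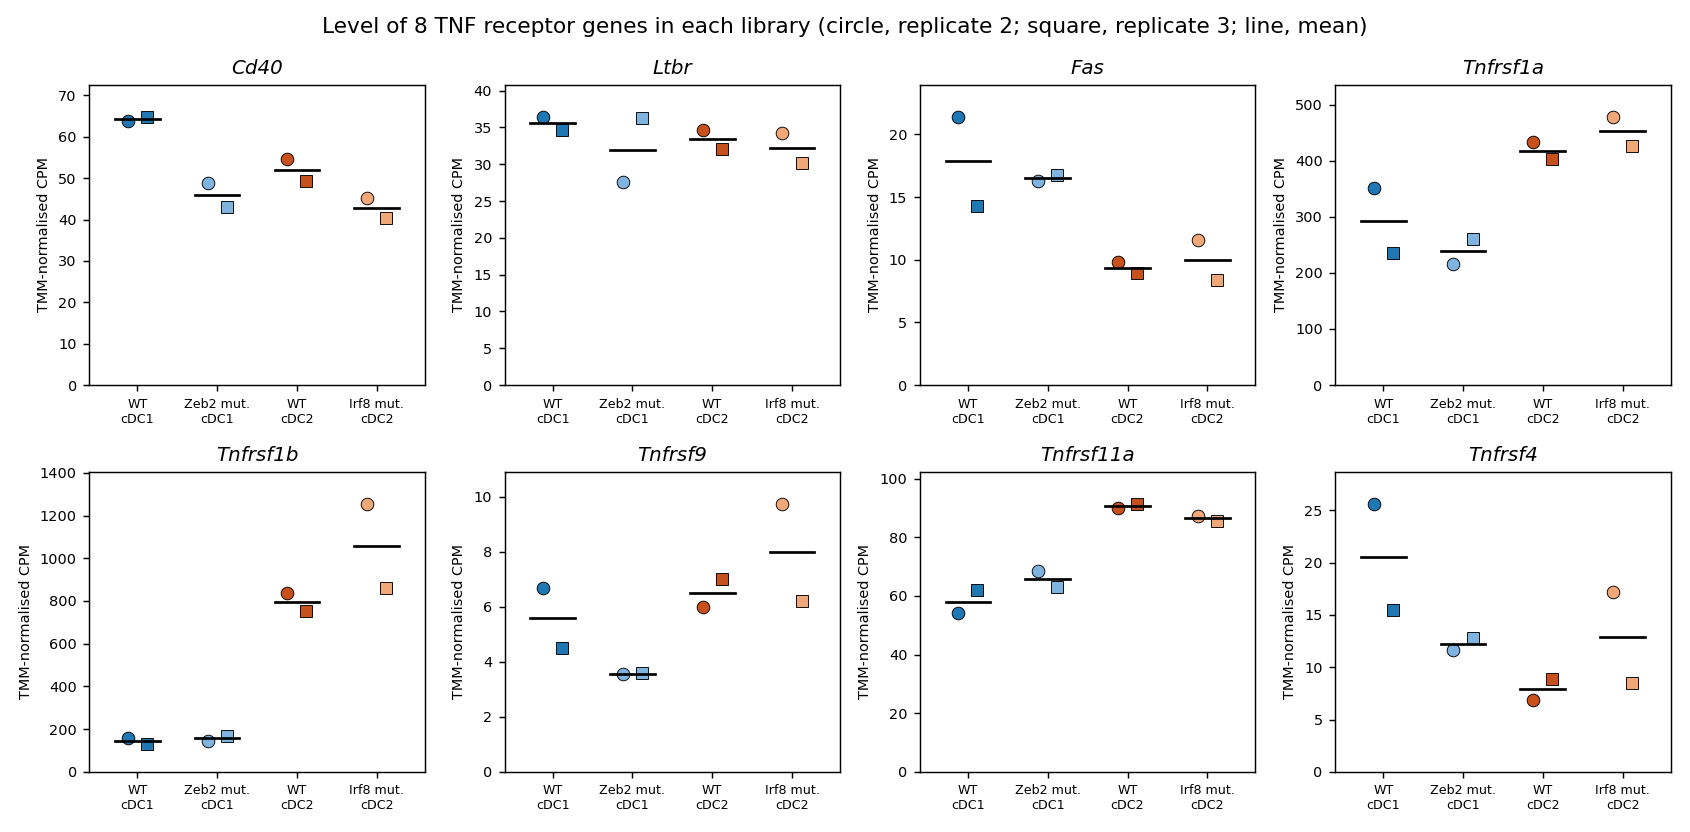
TMM-normalised CPM of the 8 receptor genes (y axes, each from 0) in wild-type cDC1, Zeb2 mutant cDC1, wild-type cDC2 and Irf8 mutant cDC2; each point is 1 library and each line a group mean. Tnfrsf1b lies between 131 and 169 CPM in the 4 cDC1 libraries and between 755 and 1255 CPM in the 4 cDC2 libraries, while the Ltbr points lie between 27.6 and 36.4 CPM in all groups.

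Between wild-type cDC1 and cDC2, the comparison that sets the subsets apart without a mutation, the receptors did not move as a block. Tnfrsf1b and Tnfrsf11a were lower in cDC1, Fas and Tnfrsf4 were higher in cDC1, and the other 4 members did not pass the test. These 4 of 8 called members stand beside 30.1% of all tested genes called (14.2% higher and 15.9% lower). The groups did not overlap for 7 of the 8 members, against 65% of all tested genes. The members' median log2 difference was -0.06, and that of all tested genes 0.03. With 8 genes, this count was not read as a result about the receptors as a set.

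Tnfrsf1b, the second TNF receptor, which lacks a death domain and signals through TRAF proteins, showed the widest separation. It was at 157 and 131 CPM in wild-type cDC1, at 146 and 169 CPM in Zeb2 mutant cDC1, at 837 and 755 CPM in wild-type cDC2 and at 1255 and 862 CPM in Irf8 mutant cDC2. Every cDC2 library was above every cDC1 library, and the replicate 2 library of Irf8 mutant cDC2 stood above the other 3 cDC2 libraries. In wild-type cells the level was 5.51-fold lower in cDC1 (log2 -2.46, SE 0.192, edgeR adjusted p = 6.32e-06). Between the mutants it was 6.72-fold lower in cDC1 (log2 -2.75, SE 0.194, edgeR adjusted p = 3.08e-06). The log2 differences of these comparisons come from different libraries, but their tests share 1 estimate of the spread over all 8 libraries and are not independent. Both calls held in all 15 alternatives tried. By rank of the group means, Irf8 mutant cDC2 (1059 ± 278 CPM) and wild-type cDC2 (796 ± 58.4) did not overlap but did not differ by the test, and Zeb2 mutant cDC1 (158 ± 16.3) and wild-type cDC1 (144 ± 18.4) overlapped.

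Tnfrsf1a, the death domain receptor of TNF found on most cells, leaned the same way by less. It was at 351 and 235 CPM in wild-type cDC1, at 217 and 261 CPM in Zeb2 mutant cDC1, at 433 and 404 CPM in wild-type cDC2 and at 478 and 427 CPM in Irf8 mutant cDC2. The 4 cDC1 libraries all lay under the 4 cDC2 libraries, but the wild-type cDC1 libraries differed from each other by a log2 of 0.58. Between the wild-type subsets the log2 difference was -0.51 (SE 0.184, edgeR adjusted p = 0.0594), which missed the threshold. It passed in 5 of the 7 alternatives other than leaving out a library, with adjusted p from 0.0107 to 0.0461 by edgeR or DESeq2, and without replicate 2 of wild-type cDC1 (log2 -0.83, edgeR adjusted p = 0.00188). Between the mutants it was 1.89-fold lower in cDC1 (log2 -0.92, SE 0.185, edgeR adjusted p = 0.00378), a call that held in every alternative.

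The balance of the TNF receptors, as a level per kilobase, separated the libraries of the subsets. The ratio of Tnfrsf1b to Tnfrsf1a was 0.304 and 0.379 in wild-type cDC1 and 0.457 and 0.439 in Zeb2 mutant cDC1. It was 1.31 and 1.27 in wild-type cDC2 and 1.78 and 1.37 in Irf8 mutant cDC2. All cDC1 libraries held more Tnfrsf1a than Tnfrsf1b transcript per kilobase, and all cDC2 libraries more Tnfrsf1b than Tnfrsf1a. The summed level of the 8 genes was 177 to 252 CPM per kilobase in the cDC1 libraries and 410 to 577 in the cDC2 libraries. Tnfrsf1b made up 16.4% to 21.9% of that sum in cDC1 and 48.2% to 56.9% in cDC2, and Tnfrsf1a 47.2% to 53.9% in cDC1 and 32% to 38% in cDC2. No test was run on these ratios and shares.

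**Figure D2:**
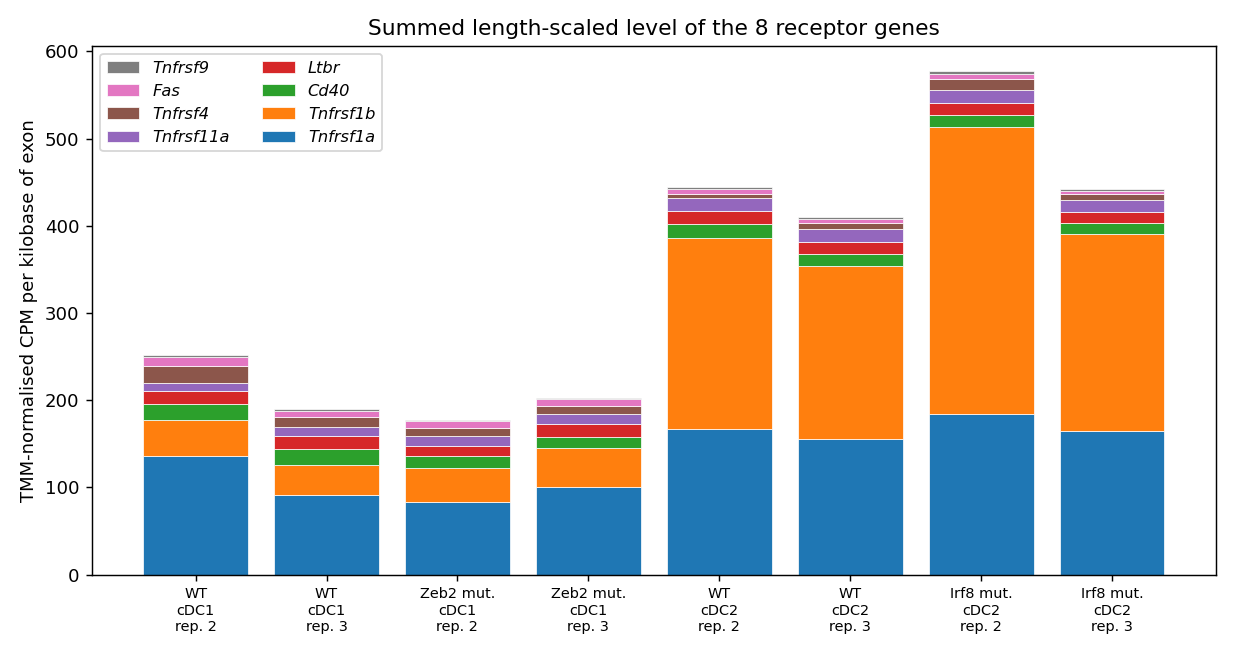
Summed TMM-normalised CPM per kilobase of exon (y axis, from 0) of the 8 receptor genes in each of the 8 libraries, split by gene. The Tnfrsf1b segment is the smaller of the TNF receptor segments in the 4 cDC1 libraries, whose bars end between 177 and 252, and the larger in the 4 cDC2 libraries, whose bars end between 410 and 577.

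Genes that mark monocytes and macrophages moved with Tnfrsf1b between the subsets. Of 10 such markers 7 were lower and 2 higher in wild-type cDC1 than in wild-type cDC2 by edgeR's test, and their summed level was 189 to 218 CPM in wild-type cDC1, 1080 to 1130 in wild-type cDC2, 150 to 158 in Zeb2 mutant cDC1 and 901 to 1190 in Irf8 mutant cDC2. Most of the sum in cDC2 came from Csf1r (624 and 612 CPM in wild type) and Adgre1 (227 and 204 CPM). Cd14 (140 and 123 CPM), Vcam1 (59.3 and 59.2 CPM) and C1qb (20.4 and 19.6 CPM) followed, with C1qa at 9.84 and 10.7 CPM, Mertk at 2.55 and 2.93 CPM and Fcgr1 at 1.67 and 1.14 CPM in the same libraries. The last 3 were lower still in wild-type cDC1, where C1qa was at 0.708 and 0.479 CPM, Mertk at 0.501 and 0.53 CPM and Fcgr1 at 0.294 and 0.0684 CPM, and all 3 were called lower there. The 2 markers higher in cDC1 were the monocyte genes Ccr2 (70.7 and 74.8 against 41.9 and 41.5 CPM) and Ly6c2 (10.1 and 7.94 against 3.64 and 3.66 CPM). No marker was at 0 in both libraries of a group. Their part in the Tnfrsf1b difference was not tested.

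Tnfrsf11a, the receptor RANK for the ligand RANKL (Tnfsf11), was also lower in cDC1. It was at 54.1 and 62.0 CPM in wild-type cDC1, at 68.4 and 63.0 CPM in Zeb2 mutant cDC1, at 89.9 and 91.4 CPM in wild-type cDC2 and at 87.4 and 85.5 CPM in Irf8 mutant cDC2. The 4 groups formed a ladder with no overlap between neighbours, and the step between the subsets was larger than the steps within them. In wild-type cells it was 1.56-fold lower in cDC1 (log2 -0.64, SE 0.127, edgeR adjusted p = 0.00325), a call that held in all 15 alternatives. Between the mutants it was 1.32-fold lower in cDC1 (log2 -0.40, SE 0.126, edgeR adjusted p = 0.0396). That call was lost in 10 of 15 alternatives, among them the fit without a filter on low counts (edgeR adjusted p = 0.13), the fit with the length trend removed (0.0807) and leaving out either library of Zeb2 mutant cDC1 (0.109 and 0.23), Irf8 mutant cDC2 (0.129 and 0.0939) or wild-type cDC2 (0.0805 and 0.133).

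Fas, the death receptor through which Fas ligand can kill a cell, ran in the opposite direction. It was at 21.4 and 14.3 CPM in wild-type cDC1, at 16.3 and 16.8 CPM in Zeb2 mutant cDC1, at 9.78 and 8.94 CPM in wild-type cDC2 and at 11.6 and 8.40 CPM in Irf8 mutant cDC2. All cDC1 libraries lay above all cDC2 libraries, and replicate 2 of wild-type cDC1 was the highest. In wild-type cells Fas was 1.91-fold higher in cDC1 (log2 0.93, SE 0.24, edgeR adjusted p = 0.0141). The call was lost without replicate 2 of wild-type cDC1 (log2 0.61, edgeR adjusted p = 0.1), without replicate 2 of wild-type cDC2 (0.0666) and without replicate 3 of wild-type cDC2 (0.0905). Between the mutants it was 1.66-fold higher in cDC1 (log2 0.73, SE 0.24, edgeR adjusted p = 0.0453), and that call was lost without replicate 2 or 3 of wild-type cDC2 (edgeR adjusted p = 0.0717 and 0.0508), replicate 2 or 3 of Zeb2 mutant cDC1 (0.133 and 0.157) or replicate 3 of Irf8 mutant cDC2 (0.223).

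Tnfrsf4 (OX40), a costimulatory receptor best known from activated T cells, was the other member higher in wild-type cDC1. It was at 25.6 and 15.5 CPM in wild-type cDC1, at 11.6 and 12.8 CPM in Zeb2 mutant cDC1, at 6.89 and 8.88 CPM in wild-type cDC2 and at 17.2 and 8.52 CPM in Irf8 mutant cDC2. Wild-type cDC1 lay above wild-type cDC2 and above Zeb2 mutant cDC1, while the Irf8 mutant cDC2 libraries were a log2 of 1.01 apart and their range overlapped that of each of the other groups. The wild-type difference was 2.6-fold (log2 1.38, SE 0.34, edgeR adjusted p = 0.0111). It was lost without replicate 2 of wild-type cDC1 (log2 0.97, edgeR adjusted p = 0.0754) or without replicate 2 of wild-type cDC2 (log2 1.21, edgeR adjusted p = 0.0971). Between the mutants the log2 difference was -0.07 (SE 0.334, edgeR adjusted p = 0.903).

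Markers of natural killer (NK) cells moved with Fas and Tnfrsf4 between the wild-type subsets. Of 8 such markers 4 were higher and 0 lower in wild-type cDC1 (median log2 difference 0.79 beside 0.03 for all tested genes), and 4 were higher and 0 lower between the mutants (median 1.11). They summed to 30 to 45.9 CPM in wild-type cDC1, 18.1 to 22.8 in wild-type cDC2, 32.6 to 38.9 in Zeb2 mutant cDC1 and 15 to 17.4 in Irf8 mutant cDC2, with none at 0 in both libraries of a group. Ncr1, which defines NK cells, was at 2.63 and 1.66 CPM in wild-type cDC1 and at 0.546 and 0.888 CPM in wild-type cDC2. In wild-type cDC1 7 of the 8 were higher in replicate 2, the library with the highest Fas and Tnfrsf4, as were 14 of 16 mature dendritic cell markers, beside 51.7% of all tested genes. Of other lists, 8 of 10 T cell, 7 of 10 monocyte and macrophage, 5 of 7 neutrophil and 5 of 6 erythroid and platelet markers were also higher there. The counts were 4 of 10 for B cell, 3 of 7 for plasmacytoid dendritic cell and 0 of 4 for regulatory T cell markers. The part of these lists in the Fas and Tnfrsf4 values was not tested.

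Markers of the T cells in which Tnfrsf4, Tnfrsf9 and Tnfrsf1b are also found were present in every group. The T cell gene Trac was at 16.3 and 12.3 CPM in wild-type cDC1 and at 15.9 and 14.5 CPM in wild-type cDC2. These values lay within the range of Tnfrsf4 over the 8 libraries. Foxp3, the factor that defines regulatory T cells, was at 0.864 and 1.69 CPM in wild-type cDC1, at 1.69 and 1.07 CPM in wild-type cDC2, at 0.378 and 0.461 CPM in Zeb2 mutant cDC1 and at 2.54 and 0.958 CPM in Irf8 mutant cDC2. The summed level of 4 regulatory T cell markers was 47.5 to 48.6 CPM in wild-type cDC1, 9.89 to 11.4 in wild-type cDC2, 42.6 to 44.8 in Zeb2 mutant cDC1 and 9.22 to 18.5 in Irf8 mutant cDC2, and nearly all of the cDC1 sum was Ctla4 (43.5 and 43.7 CPM in wild type). Between the wild-type subsets 1 of these 4 markers was higher in cDC1 and 1 lower by edgeR's test. The 10 general T cell markers summed to 91.1 to 108 CPM in wild-type cDC1, 122 to 132 in wild-type cDC2, 132 to 144 in Zeb2 mutant cDC1 and 119 to 160 in Irf8 mutant cDC2. No marker of either list was at 0 in both libraries of a group, and their part in the Tnfrsf4 values was not tested.

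Cd40, Ltbr and Tnfrsf9 did not pass the test between the wild-type subsets. Cd40, the receptor through which helper T cells license dendritic cells, was at 63.8 and 64.8 CPM in wild-type cDC1, at 54.7 and 49.2 CPM in wild-type cDC2, at 48.9 and 43.0 CPM in Zeb2 mutant cDC1 and at 45.2 and 40.4 CPM in Irf8 mutant cDC2. Wild-type cDC1 was highest and did not overlap any other group, wild-type cDC2 came next, and the mutants overlapped each other. The log2 difference between the wild-type subsets was 0.31 (SE 0.135, edgeR adjusted p = 0.116).

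Ltbr, the lymphotoxin beta receptor, was the flattest member. It was at 36.4 and 34.7 CPM in wild-type cDC1, at 34.7 and 32.1 CPM in wild-type cDC2, at 27.6 and 36.3 CPM in Zeb2 mutant cDC1 and at 34.3 and 30.2 CPM in Irf8 mutant cDC2. The lowest and the highest group mean differed by 1.11-fold, and both came from cDC1. Between the wild-type subsets the log2 difference was 0.09 (SE 0.164, edgeR adjusted p = 0.732).

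Tnfrsf9 (4-1BB, CD137), a costimulatory receptor, was the least abundant member. It was at 6.69 and 4.52 CPM in wild-type cDC1, at 6.00 and 7.02 CPM in wild-type cDC2, at 3.54 and 3.58 CPM in Zeb2 mutant cDC1 and at 9.75 and 6.22 CPM in Irf8 mutant cDC2. The wild-type subsets overlapped, with a log2 difference of -0.22 (SE 0.298, edgeR adjusted p = 0.644), while Zeb2 mutant cDC1 was below every other library. Between the mutants it was 2.24-fold lower in cDC1 (log2 -1.17, SE 0.303, edgeR adjusted p = 0.0155). That call was lost without replicate 2 of Zeb2 mutant cDC1 (edgeR adjusted p = 0.0849), without its replicate 3 (0.083) and without replicate 2 of Irf8 mutant cDC2 (log2 -0.81, edgeR adjusted p = 0.12).

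**Figure D3:**
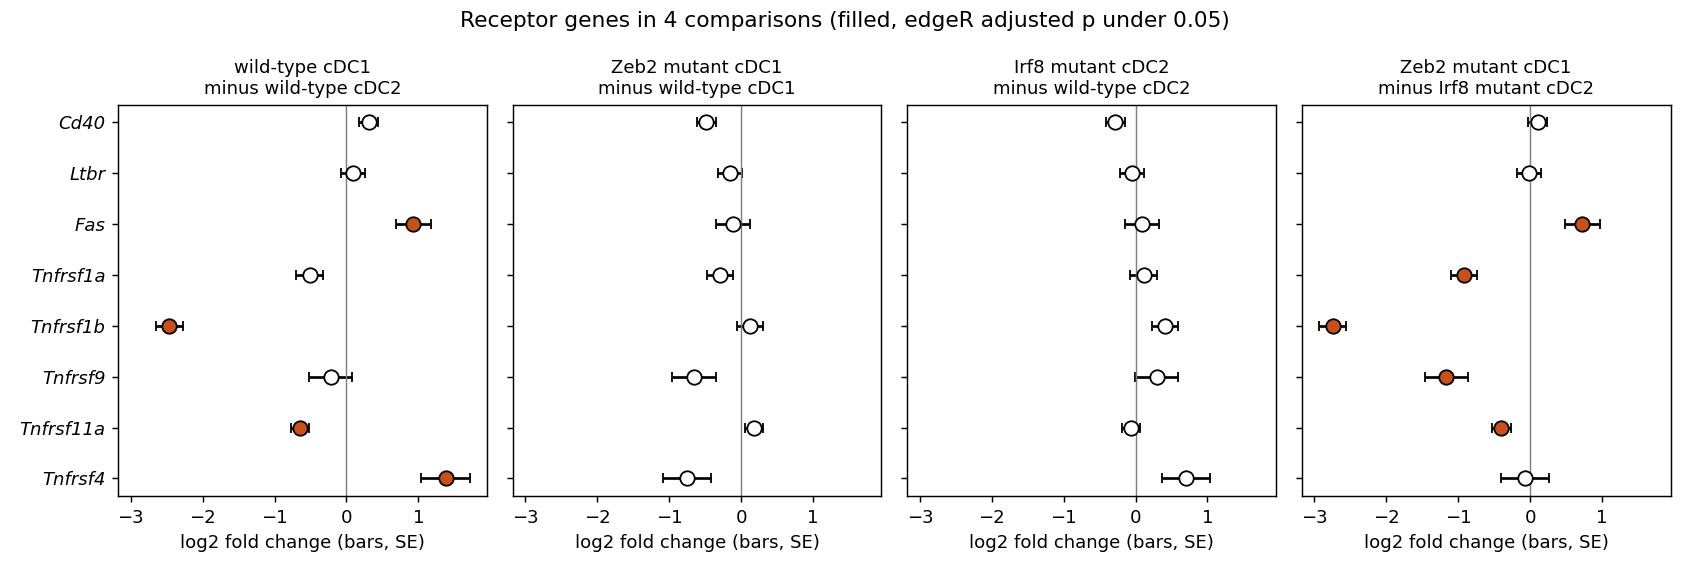
Log2 fold change (x axis) of the 8 receptor genes in 4 comparisons, with bars of 1 SE and filled points where edgeR's adjusted p was under 0.05. Filled points are 4 in the wild-type panel, 5 in the panel of Zeb2 mutant cDC1 against Irf8 mutant cDC2, and 0 in the panels of each mutant against wild type.

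In Zeb2 mutant cDC1 against wild-type cDC1, the comparison that asks what the Zeb2 genotype changes in cDC1, 0 of 8 members passed edgeR's test. In all, 0.0679% of tested genes were called (0.0145% higher and 0.0533% lower). Zeb2 itself was at 2.24 and 3.54 CPM in the mutant and at 2.09 and 2.1 CPM in wild-type cDC1. In wild-type cDC2 it was at 201 and 200 CPM. At an unadjusted p under 0.05 there were 2 members, and DESeq2 called 0. The groups did not overlap for 4 members, against 39% of all tested genes: Cd40, Tnfrsf9 and Tnfrsf4 had lower levels in the mutant and Tnfrsf11a a higher one. The log2 differences ran from 0.109 to 0.75 in size, with those of Cd40 at -0.48 (SE 0.135, edgeR unadjusted p = 0.00488, adjusted p = 0.289) and Tnfrsf4 at -0.75 (SE 0.334, edgeR unadjusted p = 0.0482, adjusted p = 0.469). Tnfrsf9 was at -0.65 (SE 0.301) and Tnfrsf1a at -0.29 (SE 0.184). Without replicate 3 of wild-type cDC1, Tnfrsf1a was called (log2 -0.55, edgeR adjusted p = 0.0475). The remaining values were -0.15 for Ltbr, -0.11 for Fas, 0.13 for Tnfrsf1b and 0.18 for Tnfrsf11a. The neutrophil markers summed to 73.8 to 108 CPM in the mutant and 0.684 to 12.9 CPM in wild-type cDC1. By edgeR 0 of 6 tested neutrophil markers were called, with 3 at an unadjusted p under 0.05. The 16 mature dendritic cell markers had a median log2 difference of -0.25, beside -0.03 for all tested genes. Of these markers 0 were called by edgeR, with 5 at an unadjusted p under 0.05. The part of both lists in the members' values was not tested.

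In Irf8 mutant cDC2 against wild-type cDC2, the matching comparison for the Irf8 genotype, 0 of 8 members passed, as did 0% of all tested genes. Irf8 itself was at 147 and 120 CPM in the mutant and at 126 and 104 CPM in wild-type cDC2. In wild-type cDC1 it was at 3260 and 3640 CPM. At an unadjusted p under 0.05 edgeR gave 1 member, Tnfrsf1b (log2 0.41, SE 0.182, unadjusted p = 0.0467, adjusted p = 0.779), and DESeq2 called 0 members. The groups did not overlap for 3 members, against 39.3% of all tested genes: Tnfrsf1b had higher levels in the mutant, and Cd40 (log2 -0.28, SE 0.135) and Tnfrsf11a (log2 -0.07, SE 0.126) had lower ones. Tnfrsf4 had the largest difference in size, a log2 of 0.71 (SE 0.337), and its groups overlapped. The other log2 differences were 0.30 for Tnfrsf9, 0.11 for Tnfrsf1a, 0.09 for Fas and -0.05 for Ltbr. The neutrophil markers summed to 42.6 to 89.1 CPM in the mutant and 1.15 to 21.1 CPM in wild-type cDC2 (median log2 difference 2.79 beside 0.01 for all tested genes, 0 of 6 tested markers called by edgeR and 1 at an unadjusted p under 0.05). The mature dendritic cell markers had a median log2 difference of 0.41, with 0 of 16 called by edgeR and 7 at an unadjusted p under 0.05. Among these were the costimulatory gene Cd86 (log2 0.996, edgeR adjusted p = 0.199) and Il12b, a subunit of interleukin 12 (log2 1.29, edgeR adjusted p = 0.0507). Both genes also had higher levels in wild-type cDC1 (Cd86 551 and 491 CPM, Il12b 624 and 443 CPM) than in wild-type cDC2 (182 and 180 CPM, 56.7 and 64 CPM). Of the 10 cDC1 markers 0 were called by edgeR and 6 were at an unadjusted p under 0.05, with a median log2 difference of -0.06. The part of these lists in the members' values was not tested.

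The replicate 2 library of Irf8 mutant cDC2 stood above replicate 3 in Tnfrsf4 (log2 1.01), Tnfrsf9 (0.65), Tnfrsf1b (0.54) and Fas (0.46). The same library was higher in the summed erythroid and platelet markers (55.1 against 4.43 CPM) and neutrophil markers (89.1 against 42.6 CPM). It was also higher in the summed monocyte and macrophage markers (1190 against 901 CPM) and regulatory T cell markers (18.5 against 9.22 CPM). The general T cell markers summed to 160 against 119 CPM, with 9 of 10 higher in replicate 2. Of the 16 markers of mature or migratory dendritic cells 14 were also higher in replicate 2, among them Cd86 (436 and 286 CPM), Fscn1 (394 and 224 CPM), Ccl22 (38.8 and 23.8 CPM) and Cd200 (28.5 and 17.9 CPM), beside 50% of all tested genes. Their sums were 8160 and 8180 CPM, because Cd83, the most abundant of them, ran the other way (3550 and 4230 CPM), as did Marcks. The part of these cell types and of maturation in the members' values was not tested.

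Zeb2 mutant cDC1 against Irf8 mutant cDC2 set the subsets against each other in the 4 mutant libraries. Here 5 of 8 members passed, against 27.9% of all tested genes (12.8% higher and 15% lower). Tnfrsf1b, Tnfrsf1a, Tnfrsf9 and Tnfrsf11a were lower in cDC1 and Fas was higher, with the values given above. The groups did not overlap for the same 5 members, against 65.8% of all tested genes. DESeq2 also called 5. Tnfrsf1b, Tnfrsf11a and Fas were thus called in both subset comparisons, in the same direction. The 3 members not called had log2 differences of 0.11 (Cd40), -0.01 (Ltbr) and -0.07 (Tnfrsf4).

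The difference of the effects, that is the Zeb2 mutant's log2 change in cDC1 minus the Irf8 mutant's in cDC2, was tested in the same fit over all 8 libraries. It equals the subset difference in the mutants minus that in wild type. By edgeR 0 of 8 members passed, against 0.0194% of all tested genes, with 2 members at an unadjusted p under 0.05 and 0 called by DESeq2. These were Tnfrsf4 (log2 -1.46, SE 0.475, edgeR unadjusted p = 0.0117, adjusted p = 0.49) and Tnfrsf9 (log2 -0.95, SE 0.423, edgeR unadjusted p = 0.0484, adjusted p = 0.653). Without the filter on low counts Tnfrsf4 passed (log2 -1.46, edgeR adjusted p = 0.00578). The other 6 members lay between -0.41 (Tnfrsf1a) and 0.25 (Tnfrsf11a). The 16 mature dendritic cell markers had a median of -0.69 in this comparison, beside -0.05 for all tested genes. Of these markers 0 were called by edgeR, with 8 at an unadjusted p under 0.05. Their part in the members' values was not tested.

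The genes whose levels ran most like those of Tnfrsf1b, Tnfrsf9 and Tnfrsf4, the 3 members whose group means spanned at least 2-fold, were sought among 9324 genes by the root mean square difference of centred log2(CPM + 1) over the 8 libraries. For Tnfrsf1b these were Dgat1 (0.084), Galnt6 (0.103) and Lgmn (0.113), against a spread of 1.31 of Tnfrsf1b about its own mean on the same scale. For Tnfrsf9 they were Klri1 (0.132), Grk5 (0.144) and Zfp954 (0.145), against 0.4. For Tnfrsf4 they were Cd200 (0.228), Serpinb1a (0.229) and Asprv1 (0.23), against 0.535. The 8 libraries hold 4 groups, so a likeness over them is mostly a likeness over 4 levels.

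Among the ligands that the 8 receptors bind, the largest differences between the wild-type subsets were those of Tnfsf14 and Ltb, which both bind Ltbr as part of lymphotoxin or as LIGHT. Ltb was at 27.9 and 20.7 CPM in wild-type cDC1, at 18.1 and 17.0 CPM in Zeb2 mutant cDC1, at 243 and 212 CPM in wild-type cDC2 and at 106 and 145 CPM in Irf8 mutant cDC2. All cDC2 libraries lay above all cDC1 libraries, and the mutant cDC2 libraries lay below the wild-type ones. It was 9.37-fold lower in wild-type cDC1 (log2 -3.23, SE 0.201, edgeR adjusted p = 1.27e-06), and between mutant and wild-type cDC2 the log2 difference was -0.86 (SE 0.185, edgeR unadjusted p = 0.00088, adjusted p = 0.34). Tnfsf14 was at 1.11 and 1.68 CPM in wild-type cDC1, at 1.22 and 0.904 CPM in Zeb2 mutant cDC1, at 26.4 and 25.5 CPM in wild-type cDC2 and at 32.4 and 26.2 CPM in Irf8 mutant cDC2, 18.6-fold lower in wild-type cDC1 (log2 -4.22, SE 0.267, edgeR adjusted p = 1.39e-06). Their receptor Ltbr, as given above, did not differ by the test in any of the comparisons.

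Tnf, the ligand of Tnfrsf1a and Tnfrsf1b, ran differently. It was at 81.1 and 72.9 CPM in wild-type cDC1, at 31.7 and 32.5 CPM in Zeb2 mutant cDC1, at 55.5 and 58.0 CPM in wild-type cDC2 and at 64.5 and 68.2 CPM in Irf8 mutant cDC2. Wild-type cDC1 was the highest group, Zeb2 mutant cDC1 the lowest, and no groups overlapped. Tnf was 1.36-fold higher in wild-type cDC1 than in wild-type cDC2 (log2 0.44, SE 0.125, edgeR adjusted p = 0.0221), 2.40-fold lower in Zeb2 mutant than in wild-type cDC1 (log2 -1.26, SE 0.127, edgeR adjusted p = 0.00723) and 2.07-fold lower in Zeb2 mutant cDC1 than in Irf8 mutant cDC2 (log2 -1.05, SE 0.126, edgeR adjusted p = 0.000135). The call between the wild-type subsets was lost when the length trend was removed (log2 0.29, edgeR adjusted p = 0.0904), in the fit on the compared libraries only (0.0651), without replicate 2 of wild-type cDC1 (0.0625), without replicate 2 of wild-type cDC2 (0.157) and without its replicate 3 (0.0854). The call in the Zeb2 mutant was lost without replicate 2 (edgeR adjusted p = 0.142) or replicate 3 (0.105) of Zeb2 mutant cDC1 and in the fit on the compared libraries only (0.0819), at log2 differences of -1.28 to -1.25. These comparisons share the wild-type cDC1 libraries.

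Tnfsf9, the ligand of Tnfrsf9, was at 37.8 and 38.4 CPM in wild-type cDC1, at 16.9 and 17.8 CPM in Zeb2 mutant cDC1, at 85.4 and 72.2 CPM in wild-type cDC2 and at 65.1 and 58.4 CPM in Irf8 mutant cDC2. No groups overlapped, and both Tnfsf9 and its receptor had their lowest levels in Zeb2 mutant cDC1. It was 2.07-fold lower in wild-type cDC1 than in wild-type cDC2 (log2 -1.05, SE 0.138, edgeR adjusted p = 0.00024) and 2.20-fold lower in Zeb2 mutant than in wild-type cDC1 (log2 -1.13, SE 0.139, edgeR adjusted p = 0.0185). The Zeb2 mutant call was lost with the length trend removed (edgeR adjusted p = 0.0784), in the fit on the compared libraries only (0.153) and without either library of Zeb2 mutant cDC1 (0.301 and 0.177), wild-type cDC2 (0.0545 and 0.0596) or Irf8 mutant cDC2 (0.0547 and 0.057).

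The ligands at low levels followed. Tnfsf4, which binds Tnfrsf4, was at 0.518 and 0.753 CPM in wild-type cDC1, at 0 and 0.24 CPM in Zeb2 mutant cDC1, at 3.82 and 3.69 CPM in wild-type cDC2 and at 7.16 and 4.59 CPM in Irf8 mutant cDC2. It was thus high in the subset in which wild-type Tnfrsf4 was low, 5.89-fold lower in wild-type cDC1 (log2 -2.56, SE 0.684, edgeR adjusted p = 0.0168), a call lost without replicate 2 of wild-type cDC1 (0.0988) or either library of wild-type cDC2 (0.0707 and 0.0671). Lta, which binds the TNF receptors as a homotrimer, was at 1.16 and 0.77 CPM in wild-type cDC1 and at 2.86 and 2.90 CPM in wild-type cDC2, 2.98-fold lower in cDC1 (log2 -1.57, SE 0.347, edgeR adjusted p = 0.00622). Cd40lg, Fasl and Tnfsf11, the ligands of Cd40, Fas and Tnfrsf11a, did not pass between the wild-type subsets (edgeR adjusted p = 0.1, 0.686 and 0.569). Cd40lg was at 0.346 to 3.15 CPM over the 8 libraries, Fasl at 1.55 to 3.35 CPM and Tnfsf11 at 0.0342 to 1.43 CPM.

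**Figure D4:**
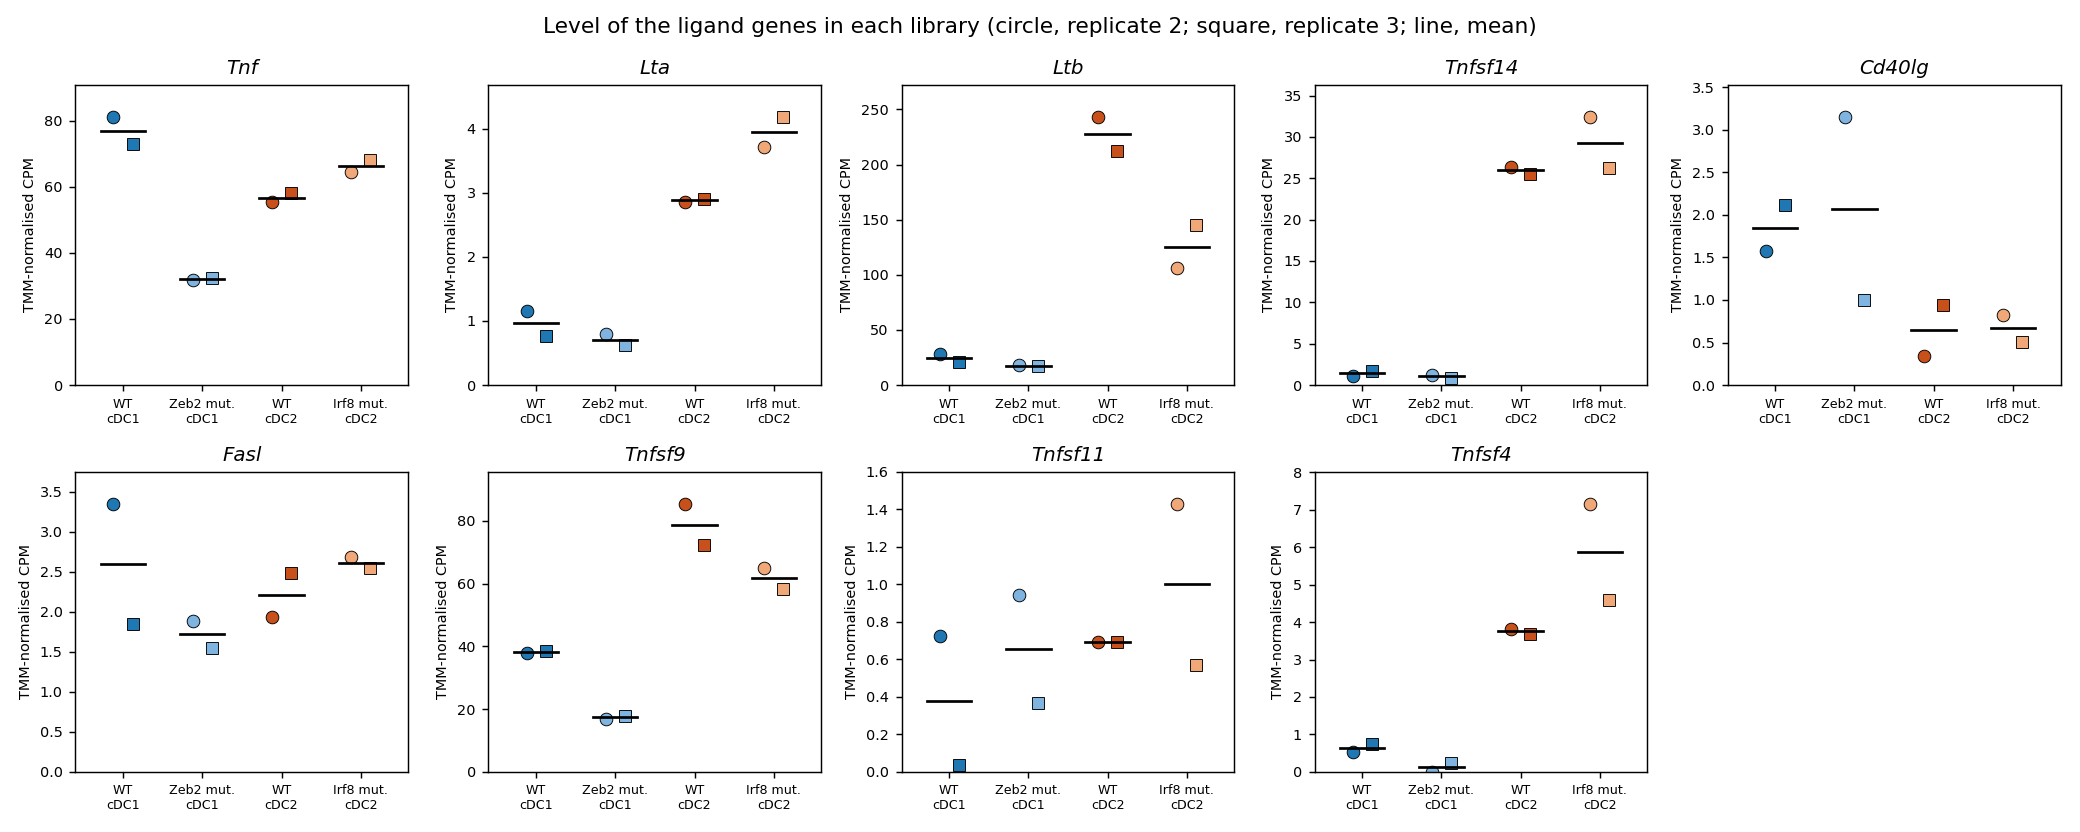
TMM-normalised CPM of 9 ligand genes of the 8 receptors (y axes, each from 0) in the 4 groups; each point is 1 library and each line a group mean. Ltb and Tnfsf14 are low in the 4 cDC1 libraries and high in the 4 cDC2 libraries, and Tnf is lowest in Zeb2 mutant cDC1 at 31.7 and 32.5 CPM.

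Of all 18 ligands of the superfamily listed, 4 were higher and 7 lower in wild-type cDC1 than in wild-type cDC2, with a median log2 difference of -0.75 beside 0.03 for all tested genes, of which 14.2% were higher and 15.9% lower. These 11 calls became 7 without replicate 2 of wild-type cDC1 and 6 without either library of wild-type cDC2. Beyond the ligands above, Tnfsf8 was 5.38-fold lower (log2 -2.43, edgeR adjusted p = 0.000111) and Tnfsf15 2.37-fold lower (log2 -1.24, edgeR adjusted p = 0.0475), a call lost without either library of wild-type cDC1, wild-type cDC2 or Irf8 mutant cDC2 (edgeR adjusted p = 0.0577 to 0.236) and with the length trend removed (0.0813). Tnfsf18 was 2.23-fold higher (log2 1.16, edgeR adjusted p = 0.0241), a call lost without replicate 2 of wild-type cDC1 or either library of wild-type cDC2 (0.103, 0.118 and 0.116). Eda was at 4.08 and 2.74 CPM in wild-type cDC1 and at 0 and 0.0533 CPM in wild-type cDC2, too few counts for a fold. The fourth ligand called higher, named after its value was seen, was Tnfsf13b (log2 1.16, edgeR adjusted p = 0.0496). In Zeb2 mutant against wild-type cDC1 2 ligands (Tnf and Tnfsf9) fell and 0 rose, in Irf8 mutant against wild-type cDC2 0 of 18 passed edgeR's test (2 at an unadjusted p under 0.05, 1 by DESeq2), and between the mutants 2 were higher and 8 lower in cDC1, beside 12.8% and 15% of all tested genes. In the difference of the effects 1 ligand, Tnf, passed (log2 -1.49, SE 0.177, edgeR adjusted p = 0.035).

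Of 20 other receptors of the family, 18 were tested, and 3 were higher and 4 lower in wild-type cDC1, with a median log2 difference of 0.07. These 7 of 18 stand beside 30.1% of all tested genes called. Tnfrsf12a, the TWEAK receptor, was at 3.40 and 2.91 CPM in cDC1 and 18.8 and 16.3 CPM in cDC2 (log2 -2.47, edgeR adjusted p = 4.38e-05). Tnfrsf13b (TACI), a receptor for BAFF and APRIL, was at 11.8 and 10.2 CPM in cDC1 and 49.7 and 51.3 CPM in cDC2 (log2 -2.20, edgeR adjusted p = 5.14e-05). Tnfrsf21 (DR6), a death domain receptor, was at 132 and 114 CPM in cDC1 and 69.1 and 62.2 CPM in cDC2 (log2 0.90, edgeR adjusted p = 0.000666). Tnfrsf8 (CD30) had no count in either wild-type cDC1 library and was at 0.509 and 1.24 CPM in wild-type cDC2. The other called genes, named after their values were seen, were Relt, lower, and the neighbouring and similar decoy receptors Tnfrsf22 and Tnfrsf23, higher. Reads that match both decoy receptors may make their counts uncertain, which was not tested. Between the mutants 5 were higher and 4 lower in cDC1, beside 27.9% of all tested genes called. These 9 calls became 5 without replicate 2 of Zeb2 mutant cDC1, 4 without its replicate 3 and 4 without replicate 2 of Irf8 mutant cDC2. In each mutant against wild type 0 passed edgeR's test, with 1 at an unadjusted p under 0.05 and 0 by DESeq2.

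Downstream of the receptors, most called genes of the adaptors and of NF-κB were lower in cDC1. Of 26 adaptor and death pathway genes 14 were lower and 1 higher in wild-type cDC1, and of 17 NF-κB genes 12 were lower and 1 higher, beside 15.9% lower and 14.2% higher among all tested genes. The median log2 differences were -0.59 and -0.85. Between the mutants the counts were 13 lower and 2 higher of 26, and 13 lower and 1 higher of 17, with medians of -0.57 and -1.06 beside -0.02 for all tested genes. In Zeb2 mutant against wild-type cDC1 and in Irf8 mutant against wild-type cDC2, 0 genes of either list passed edgeR's test. At an unadjusted p under 0.05 there were 5 adaptor and 8 NF-κB genes in the Zeb2 mutant and 3 and 2 in the Irf8 mutant, and DESeq2 called 1 NF-κB gene in the Zeb2 mutant and 0 otherwise. Without replicate 3 of wild-type cDC1, 3 adaptor and 3 NF-κB genes were called in the Zeb2 mutant, and without the filter on low counts 1 NF-κB gene was called in each mutant.

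Tnfaip3 (A20), which edits ubiquitin chains to end signalling of these receptors, was at 330 and 429 CPM in wild-type cDC1 and at 1620 and 1510 CPM in wild-type cDC2 (log2 -2.05, edgeR adjusted p = 5.03e-06). Traf1, an adaptor of Tnfrsf1b, Tnfrsf9 and Cd40 signalling, was at 376 and 307 CPM in cDC1 and 1010 and 908 CPM in cDC2 (log2 -1.49, edgeR adjusted p = 2.18e-05). Birc2 (cIAP1), the ubiquitin ligase held by Traf2, was lower by a log2 of -1.39 and Tank by -1.08 (edgeR adjusted p = 2.32e-05 and 7.54e-05). The 1 adaptor higher in cDC1, named after its value was seen, was Sharpin, a subunit of the linear ubiquitin ligase (log2 0.82, edgeR adjusted p = 0.000778).

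Rel, the NF-κB subunit c-Rel, was at 613 and 605 CPM in wild-type cDC1, at 718 and 784 CPM in Zeb2 mutant cDC1, at 2960 and 2710 CPM in wild-type cDC2 and at 3210 and 3240 CPM in Irf8 mutant cDC2 (log2 -2.22 between the wild-type subsets, edgeR adjusted p = 5.42e-07). Relb, the subunit of the alternative pathway that Ltbr, Cd40 and Tnfrsf11a feed, was at 125 and 122 CPM in wild-type cDC1 and at 526 and 483 CPM in wild-type cDC2 (log2 -2.03, edgeR adjusted p = 1.48e-06). Nfkbie, an inhibitor of c-Rel, and Nfkb1 were lower as well (log2 -2.23 and -1.77, edgeR adjusted p = 2.72e-06 and 6.72e-06). The 1 NF-κB gene higher in cDC1, named after its value was seen, was Chuk, the kinase IKKα (log2 0.57, edgeR adjusted p = 0.0091).

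Of 5 genes for the shedding of TNF and its receptors, Adam10, a membrane protease, was lower in wild-type cDC1 (75.3 ± 0.399 against 120 ± 6.07 CPM, log2 -0.68, edgeR adjusted p = 0.00157), and Rhbdf1, a partner of the protease Adam17, was higher (6.92 ± 1.75 against 2.57 ± 0.605 CPM, log2 1.43, edgeR adjusted p = 0.0152). The Rhbdf1 call was lost without replicate 3 of wild-type cDC1 (0.0644) or replicate 2 of wild-type cDC2 (0.128). Between the mutants 2 of the 5 (Adam10 and Rhbdf2, another partner of Adam17) were lower in cDC1 and 0 higher. That count became 0 without replicate 3 of wild-type cDC2, either library of Zeb2 mutant cDC1 or replicate 2 of Irf8 mutant cDC2, and 1 without replicate 2 of wild-type cDC2 or in the fit on the compared libraries only. Against wild type 0 passed edgeR's test or DESeq2 in each mutant, with 1 at an unadjusted p under 0.05 in the Zeb2 mutant and 0 in the Irf8 mutant. Maturation also induces several of these receptors, and of 16 markers of mature or migratory dendritic cells 5 were higher and 4 lower in wild-type cDC1 than in wild-type cDC2, and 2 higher and 9 lower between the mutants. Their summed level was 5080 to 6890 CPM in wild-type cDC1, 4630 to 5120 in Zeb2 mutant cDC1, 7340 to 7860 in wild-type cDC2 and 8160 to 8180 in Irf8 mutant cDC2, with none at 0. Their part in the receptor values was not tested.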

How the data were processed

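RNA of 8 libraries of splenic cDC1 and cDC2 was sequenced with paired reads of 150 bases from 10 ng of RNA per library, with a kit (SMARTer Ultra Low) that does not mark strand, per the labels' protocols. Per the submitters' processing notes, the authors' tools were STAR, Salmon, bcl2fastq and featureCounts of Subread, and the builds mm10 and GRCm38. How strand and reads shared by genes were handled is not given in the sources used here. The authors' count column holds whole reads of each gene, per the file headers. Their deposited CPM values are counts over the library's total, and their deposited FPKM values divide the CPM by the kilobases of exon, both of which were checked on the values. Neither of these columns nor the deposited TPM column entered a test.

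Symbols were matched by gene ID from a table of gene names, which gave a symbol to 55141 of the 55487 gene IDs. GENCODE M21, used for gene types and coordinates, held 55227 of them. Counts were fitted with edgeR 4.0.16 in R 4.3.3: filterByExpr with the 4 groups (20631 genes kept), TMM scaling (factors 0.951 to 1.055), and a robust quasi-likelihood model with 1 coefficient per group over all 8 libraries, which leaves 4 residual degrees of freedom. There were 5 comparisons: wild-type cDC1 minus cDC2, each mutant minus wild type of its subset, the mutants against each other (Zeb2 cDC1 minus Irf8 cDC2), and the difference of their effects. The wild-type cDC1 libraries serve in the first comparison and the Zeb2 comparison, and the wild-type cDC2 libraries in the first and the Irf8 comparison. A gene was called where its Benjamini-Hochberg adjusted p, taken over the 20631 genes, was under 0.05. The SE was found by dividing the size of the log2 fold change by the square root of F. The scripts were tested on simulated counts. With totals of 49380686 to 58611821 counts, 1 count was worth 0.0171 to 0.0203 CPM, and the number of libraries, not depth, limits the precision of the members' values.

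The members and the gene lists were chosen with earlier results of these data known. All 8 members are named; of each pathway list the ligands of the members and up to 4 further called genes with the smallest adjusted p between the wild-type subsets are named, and others are named only where stated. The most alike genes were sought among protein-coding genes with a symbol and at least 5 CPM on average. Alternatives were RLE scaling, DESeq2 1.42.0, no filter on low counts, removal of the trend on exon length, the replicate number as a block, both of the last together, a fit on only the compared libraries, and leaving out each library.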

Additional observations from a re-analysis of the deposited data

Results flagged for a closer look

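Tnf, the ligand of Tnfrsf1a and Tnfrsf1b, passed the test of the difference between the mutants' effects, with a log2 difference of -1.488 (SE 0.177, edgeR adjusted p = 0.035). It was 77.0 ± 5.81 CPM in wild-type and 32.1 ± 0.546 CPM in Zeb2 mutant cDC1, and 56.7 ± 1.76 CPM in wild-type and 66.3 ± 2.59 CPM in Irf8 mutant cDC2 (SD, n = 2). The levels were lower in both Zeb2 mutant libraries than in both wild-type cDC1 libraries and higher in both Irf8 mutant libraries than in both wild-type cDC2 libraries. Without 1 library the difference stayed between -1.56 and -1.41 on the log2 scale, and the call was lost without either library of wild-type cDC2 (edgeR adjusted p = 0.35 and 0.24), Zeb2 mutant cDC1 (0.307 and 0.29) or Irf8 mutant cDC2 (0.163 and 0.0939). It was also lost with the length trend removed (0.0554).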

How the results depend on the processing

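Of the members, Tnfrsf1b in both subset comparisons and Tnfrsf11a between the wild-type subsets kept their direction and their call in all 15 alternatives. So did Tnfrsf1a between the mutants. With 1 library left out, the members called numbered 2 to 4 between the wild-type subsets (4 with all libraries), 0 to 1 in the Zeb2 mutant (0) and 2 to 5 between the mutants (5); with fewer libraries the fit has fewer residual degrees of freedom, and a lone library is assumed to vary like the other groups. Without the filter on low counts 1 member was called in the difference of the effects. Signs of uncalled members turned when 1 library was left out. On the log2 scale they ran, between the wild-type subsets, from -0.53 to 0.039 (Tnfrsf9); in the Zeb2 mutant from -0.37 to 0.03 (Ltbr), -0.37 to 0.21 (Fas) and -0.55 to 0.023 (Tnfrsf1a); in the Irf8 mutant from -0.15 to 0.038 (Ltbr), -0.16 to 0.30 (Fas) and -0.066 to 0.58 (Tnfrsf9); between the mutants from -0.22 to 0.17 (Ltbr) and -0.49 to 0.52 (Tnfrsf4); and in the difference of the effects from -0.31 to 0.081 (Ltbr), -0.46 to 0.12 (Fas) and -0.53 to 0.011 (Tnfrsf1b). Ltbr between the mutants was also 0.007 without the filter and 0.003 with only the compared libraries; the cause was not tested.

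In each comparison the calls over all genes, higher or lower, moved by more than 1.5 times in some alternatives. For the Zeb2 mutant 3 and 11 became 158 and 147 by DESeq2, 258 and 219 without the filter and 666 and 369 without replicate 3 of wild-type cDC1; they became 0 and 0 without replicate 2 of Zeb2 mutant cDC1 and 1 and 0 without its replicate 3. For the Irf8 mutant 0 and 0 became 76 and 75 by DESeq2 and 125 and 74 without the filter. For the difference of the effects 0 and 4 became 81 and 81, 139 and 167, and 364 and 166 by DESeq2, without the filter and without replicate 3 of wild-type cDC1, and 0 were called lower without either library of wild-type cDC2 or of Zeb2 mutant cDC1 or without replicate 2 of Irf8 mutant cDC2. Between the wild-type subsets the 2932 higher calls became 1625 and the 3287 lower calls 2175 without replicate 2 of wild-type cDC2, and the higher calls 1750 without its replicate 3. Between the mutants the 2646 higher calls became 1731 and 1664 without replicate 2 and 3 of Zeb2 mutant cDC1. With log2(CPM + 0.1), 1 of the 3 genes most like Tnfrsf9 was shared.

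The difference of replicate 2 and 3 was little shared between groups, with correlations of -0.18 to 0.07 over 8399 genes. These values cannot tell whether libraries of equal number came from the same mice or sort. The labels do not say, and the wild-type cDC1 difference also ran with gene length. With the replicate block 4 members were called between the wild-type subsets, 0 in the Zeb2 mutant, 0 in the Irf8 mutant, 4 between the mutants (Tnfrsf11a lost, edgeR adjusted p = 0.0694) and 0 in the difference of the effects. The block also ended the calls of Tnf in the difference of the effects (edgeR adjusted p = 0.107) and of Tnfsf15 between the wild-type subsets (0.0678).

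With 2 libraries a group, small differences in members at low levels were not detectable.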
